A study of Mus musculus with 18 samples.

Results

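The MAP kinase phosphatases examined here are 9 genes, Dusp1, Dusp4, Dusp5, Dusp6, Dusp7, Dusp8, Dusp10, Dusp16 and Dusp14, chosen by name from the 55335 gene identifiers of the deposited counts. The rule used no measured value, but the set was chosen with earlier results of these data known. All 9 passed the filter on low counts at both days. Their mRNA was measured by bulk RNA-seq in 18 libraries of O9-1 cells, a mouse neural crest (NC) line derived from embryonic heads, cultured in osteoblast differentiation medium. The study asked how fibroblast growth factor (FGF) signaling and the transcriptional co-activators Yap and Taz together act on these cells. There were 3 libraries in each of 6 groups, which were 3 treatments at day 2.5 (d2.5) and again at day 5 (d5).

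Ctrl+vehicle cells received a scramble siRNA and no FGF2, Ctrl+FGF2 cells received the scramble siRNA with FGF2, and Y/T dKD+FGF2 cells received pools of siRNAs directed at Yap and Taz with FGF2. The genotype was labelled wildtype in all groups. No group combined the knockdown with vehicle, so its effect was measured in the presence of FGF2 alone. All libraries come from this 1 cell line. The labels give each day as its own batch, so day and batch cannot be told apart. They do not say whether the 3 libraries of a group came from separate cultures, so the p-values measure the spread between these libraries, which may be technical.

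MAP kinases (ERK, JNK and p38) are switched on when upstream kinases phosphorylate a threonine and a tyrosine in their activation loop, and these phosphatases remove both phosphates. FGF receptors activate ERK through Ras and Raf, and ERK signaling in turn induces several of the phosphatases, which act as negative feedback on the pathway. In FGF-responsive tissues of the embryo, Dusp6 is widely used as a marker of ERK activity. Dusp1, Dusp4 and Dusp5 encode nuclear, inducible enzymes, Dusp6 and Dusp7 encode cytoplasmic enzymes that prefer ERK, Dusp8, Dusp10 and Dusp16 encode enzymes that prefer JNK and p38, and Dusp14 encodes a small enzyme without the docking domain for MAP kinases.

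What the family shares is its catalytic loop. The coding bases of that loop are shown 5′ to 3′ for 8 members, all but Dusp4, from the histidine codon that opens it to the arginine codon that closes it, with the codon of the catalytic cysteine in capitals. They were read from GENCODE M21 transcripts on GRCm38, and each is 24 bases long and occurs once in its transcript.
Dusp1, exon 4: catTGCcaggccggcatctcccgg
Dusp5, exon 4: cacTGCgaagctggggtttcccgg
Dusp6, exon 3: catTGCttggcaggtatcagccgc
Dusp7, exon 3: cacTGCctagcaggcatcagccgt
Dusp8, exon 6: cacTGTctggctggcatctctcgc
Dusp10, exon 4: cacTGCcaggccggcgtgtcccga
Dusp16, exon 6: cacTGCttagctgggatctctcgc
Dusp14, exon 4: cacTGTgcggcaggcgtgagccgc
Among the 28 pairs of these loops, between 13 and 20 of the 24 bases were identical. The loops were found by a search that required codons for histidine, cysteine, glycine and arginine at fixed places. Some of the identical bases were therefore set by the search. The pairs Dusp8 and Dusp16, both JNK- and p38-directed, and Dusp1 and Dusp10 shared 20 bases, and the ERK-selective pair Dusp6 and Dusp7 shared 19. Dusp10, also JNK- and p38-directed, shared 17 with Dusp8 and 15 with Dusp16. Dusp5, of another class, shared 18 with Dusp10 and 18 with Dusp16. The codon in capitals was TGT in Dusp8 and Dusp14 and TGC in the other 6.

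Some members carry motifs in their promoters that are rare over all promoters. RefSeq promoters on GRCm38.p6, from 250 bases before to 50 after the gene's start, were matched for 8 of the 9 members, all but Dusp4, and were searched on both strands for motifs of factors that act downstream of MAP kinases, cyclic AMP or Yap. Windows of 30 bases around the rarest matches are shown on the gene's strand, 5′ to 3′, with the match in capitals: the full cyclic AMP response element TGACGTCA in Dusp1 and Dusp8, and the CArG box, the site of serum response factor, in Dusp5.
Dusp1, chr17:26508597-26508626, minus strand: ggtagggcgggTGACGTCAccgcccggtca
Dusp8, chr7:142095373-142095402, minus strand: gcccgctccgcTGACGTCAcctgcccccga
Dusp8, chr7:142095329-142095358, minus strand: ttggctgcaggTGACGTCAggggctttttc
Dusp5, chr19:53529052-53529081, plus strand: cggggaaatacCCATATTTGGccttatatg
Dusp5, chr19:53529062-53529091, plus strand: cccatatttggCCTTATATGGgcactcacg
The full element was present in 1.79% of the 32851 promoters searched and a CArG box in 1.63%. The windows of the 8 members held 57.3% to 78.7% G and C, where the median of all promoters was 52.7%. They held 19 to 41 CpG pairs (C followed by G), where that median was 7. Shares among promoters of like composition were not tested. For Dusp1, Dusp5, Dusp8, Dusp10 and Dusp14 the RefSeq start lies inside the longer GENCODE gene model. The matches began 143 bases before the start of Dusp1, 107 and 63 bases before the start of Dusp8, and 82 and 72 bases before the start of Dusp5, where both boxes lay next to each other. The short element TGACG, which the full one contains, was found in Dusp1, Dusp5, Dusp8 and Dusp16 and in 20.8% of all promoters. The letters of the AP-1 motif TGANTCA (7.81% of all promoters), the ETS motif CCGGAAG (8.86%), the TEAD motif GGAATG (14.7%) and the TATA motif TATAAA (13.6%) were in none of these 8 windows. A match describes the letters of a window and not the binding of a factor.

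Counts on genes were between 10377151 and 14698525 per library (median 12330911), and replicates of a group differed by more than sampling noise. The siRNA targets were lowered as labelled: in Y/T dKD+FGF2, Yap1 was at 51.5% (d2.5) and 46.0% (d5) of its level in Ctrl+FGF2, and Wwtr1, which encodes Taz, at 60.8% and 57.5%. FGF2 itself raised Wwtr1 at d2.5 (log2 fold change 0.65), so at d2.5 Wwtr1 in Y/T dKD+FGF2 was at 95.6% of Ctrl+vehicle (adjusted p = 0.122), while Yap1 was at 44.0%. Of 12 NC markers, 8 were at 1 CPM or more in every group, on average, and Sox10 and Foxd3, which define early migrating NC cells, were at 0 counts in all libraries. Summed markers of endothelial, leukocyte, epithelial and muscle cells stayed at or below 5.61 CPM in every library. Those of neurons and glia (4 genes) were at 22.1 to 26.1 CPM without FGF2, 10.96 to 13.4 with it and 6.63 to 8.32 under the knockdown (all d2.5), and at 1.25 to 4.02 in the libraries of d5. Those of osteoblasts (7 genes) were at 17153 to 17495, 9155 to 9380.0 and 10759.8 to 11177 CPM at d2.5 and at 32311 to 34530.2, 17824 to 19211 and 24456 to 26114 at d5, in the same order. Whether these shares of markers bear on the phosphatases was not tested.

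With FGF2 at d2.5, Dusp6 took the place of Dusp7 as the most abundant mRNA among the members. Levels between genes were compared as CPM, gene counts relative to the size of the library scaled with TMM factors, per kilobase of exon. Exon length was taken over all annotated transcripts of a gene together, which can exceed the length of the mRNA present and lower the value. At d2.5 Dusp7 led without FGF2, at 16.5 ± 0.411 CPM per kb (SD, n = 3 here and below), and Dusp6 was in the fourth place at 4.73 ± 0.0932. With FGF2, Dusp6 led at 40.5 ± 0.559 CPM per kb, ahead of Dusp7 at 28.9 ± 1.29, and Dusp4 moved from the eighth place (1.22 ± 0.0566) to the third (11.8 ± 0.596). Dusp10 moved the other way, from the third place (6.01 ± 0.791 CPM per kb) to the seventh (1.63 ± 0.413). The libraries of neighbours in the orders of d2.5 did not overlap, apart from Dusp10 and Dusp1 in Ctrl+FGF2 and Dusp5 and Dusp14 under the knockdown. At d5 Dusp7 led again in Ctrl+vehicle and Ctrl+FGF2, with Dusp6 second (9.86 ± 1.74 and 8.63 ± 0.610 CPM per kb), and Dusp6 led only in Y/T dKD+FGF2, at 18.8 ± 1.10 against 17.1 ± 0.568 for Dusp7. Dusp1, near the bottom at d2.5, was in the third place in all 3 groups of d5, at 7.01 ± 0.484 to 11.6 ± 0.602 CPM per kb. The neighbours that overlapped at d5 were Dusp16 and Dusp14 in Ctrl+FGF2, and Dusp16, Dusp14 and Dusp4 under the knockdown. Dusp8 was the lowest member in each of the 6 groups, between 0.257 ± 0.166 and 0.844 ± 0.184 CPM per kb.

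**Figure D1:**
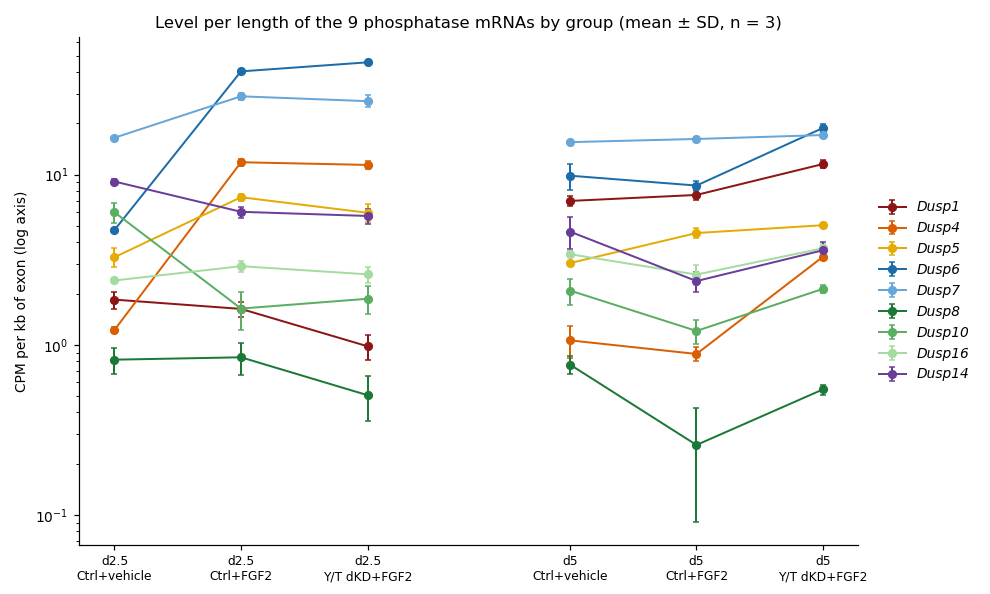
Mean level of each member in CPM per kilobase of exon (log axis) in the 6 groups, with whiskers for the SD of 3 libraries and lines joining the groups of a day. At d2.5 Dusp6 and Dusp4 climb with FGF2 and stay high under the knockdown, while at d5 both are highest under the knockdown. Dusp8 is the lowest line throughout.

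The sum of the 9 mRNAs, on the CPM scale without length, was 146 ± 1.94 CPM in Ctrl+vehicle at d2.5, 323 ± 4.98 with FGF2 and 323 ± 11.1 with FGF2 and the knockdown. At d5 the sums were 162 ± 7.77, 149.9 ± 1.95 and 221 ± 8.61 CPM in the same order. At d2.5 the groups with FGF2 stood above vehicle, and at d5 the knockdown stood above the other groups. In bulk RNA, fewer cells of a type and less RNA per cell cannot be told apart.

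The nuclear, inducible members moved in 3 different ways. Dusp4, which encodes a nuclear phosphatase of ERK, JNK and p38 (chr8:34807297-34819894, plus strand), was at 3.45, 3.42 and 3.17 CPM in the 3 Ctrl+vehicle libraries of d2.5, at 30.7, 32.6 and 33.96 CPM in Ctrl+FGF2 and at 29.5, 32.1 and 32.2 CPM in Y/T dKD+FGF2. Both groups with FGF2 lay far above vehicle and overlapped each other. FGF2 raised Dusp4 9.57-fold (log2 fold change 3.26, SE 0.099, adjusted p = 5.18e-23, from edgeR's quasi-likelihood test with Benjamini-Hochberg adjustment, as for every adjusted p below), and the knockdown was not called (log2 fold change -0.060, SE 0.065, adjusted p = 0.547). At d5 the libraries were at 2.71, 3.58 and 2.42 CPM in Ctrl+vehicle, 2.57, 2.52 and 2.16 CPM in Ctrl+FGF2 and 9.02, 8.89 and 9.17 CPM in Y/T dKD+FGF2. By then vehicle and FGF2 overlapped, and the knockdown libraries alone stood above both. FGF2 was not called at d5 (log2 fold change -0.26, SE 0.20, adjusted p = 0.317), and the knockdown raised Dusp4 3.70-fold (log2 fold change 1.89, SE 0.16, adjusted p = 7.54e-08).

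Dusp5, which encodes a nuclear phosphatase that prefers ERK (chr19:53529109-53542431, plus strand), carries the pair of CArG boxes shown above. At d2.5 it was at 9.11, 7.03 and 8.11 CPM in Ctrl+vehicle, 17.4, 19.2 and 18.05 CPM in Ctrl+FGF2 and 16.6, 14.8 and 12.95 CPM in Y/T dKD+FGF2. The 3 groups did not overlap, with FGF2 highest and the knockdown between. FGF2 raised it 2.24-fold (log2 fold change 1.16, SE 0.10, adjusted p = 2.30e-11), and the knockdown lowered it (log2 fold change -0.31, SE 0.095, adjusted p = 0.0150). The call of the knockdown was lost with DESeq2 (-0.31), without replicate 2 of Ctrl+FGF2 (-0.27) and without replicate 3 of Y/T dKD+FGF2 (-0.23). At d5 the libraries were at 7.44, 7.25 and 7.72 CPM, 12.04, 10.7 and 10.96 CPM and 12.7, 12.6 and 12.1 CPM in the same order. Both groups with FGF2 lay above vehicle. Dusp5 was the 1 member that rose with FGF2 at d5 (log2 fold change 0.60, SE 0.11, adjusted p = 2.04e-04), and the knockdown was not called there (log2 fold change 0.15, SE 0.099, adjusted p = 0.276).

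Dusp1, which encodes an immediate early phosphatase directed mainly at p38 and JNK (chr17:26505590-26562128, minus strand), was not called for FGF2 on either day. At d2.5 it was at 5.59, 6.91 and 5.80 CPM in Ctrl+vehicle, 5.92, 4.80 and 5.41 CPM in Ctrl+FGF2 and 2.98, 2.88 and 3.87 CPM in Y/T dKD+FGF2. At d5 it was at 21.4, 24.5 and 23.7 CPM, 25.2, 26.95 and 23.4 CPM and 38.4, 40.1 and 36.2 CPM. Vehicle and FGF2 overlapped on both days, and the knockdown libraries lay below both at d2.5 and above both at d5. The effect of FGF2 was small (log2 fold change -0.20, SE 0.14, adjusted p = 0.222 at d2.5 and log2 fold change 0.13, SE 0.078, adjusted p = 0.191 at d5). The knockdown lowered Dusp1 to 59.98% of Ctrl+FGF2 at d2.5 (log2 fold change -0.74, SE 0.17, adjusted p = 0.00136) and raised it 1.51-fold at d5 (log2 fold change 0.60, SE 0.072, adjusted p = 4.64e-06). Its gene model overlaps Ergic1 on the opposite strand, and 5.12% of its stranded counts lay on that strand, against at most 0.47% for the other members. The calls of Dusp1 within a day did not change with unstranded counts.

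**Figure D2:**
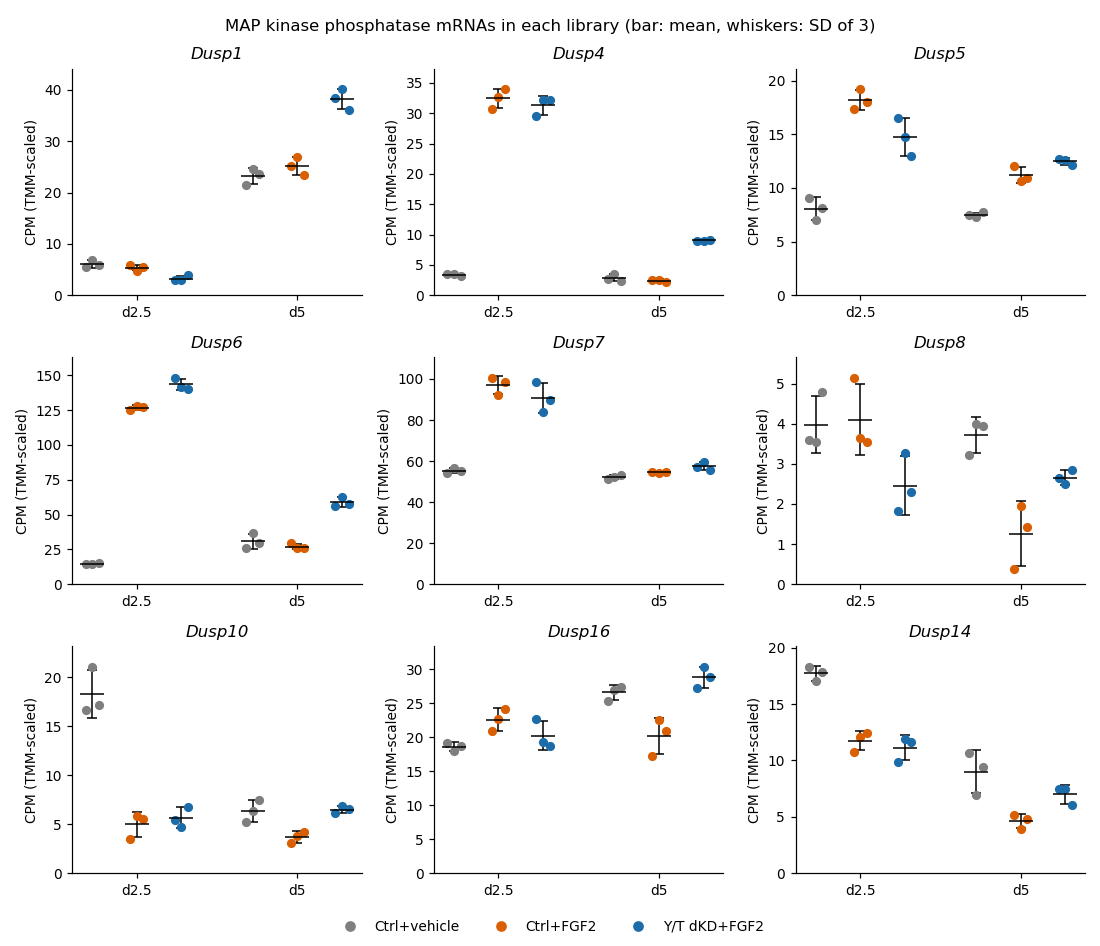
CPM of each member (vertical axes starting at 0, each panel with its own scale) in the 18 libraries at d2.5 and d5, 1 point per library, with a bar at the mean and whiskers for the SD of 3. Dusp4 and Dusp6 sit high in both groups with FGF2 at d2.5, Dusp10 sits high only in vehicle at d2.5, and Dusp1 sits high at d5 with the knockdown above the other groups.

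Of the cytoplasmic, ERK-selective members, Dusp6 rose strongly and Dusp7 modestly with FGF2 at d2.5. Dusp6 (chr10:99263231-99267489, plus strand) was at 14.6, 14.7 and 15.1 CPM in Ctrl+vehicle, 125, 128 and 127 CPM in Ctrl+FGF2 and 148, 142 and 140.5 CPM in Y/T dKD+FGF2. The 3 groups did not overlap and the knockdown was the highest. FGF2 raised Dusp6 8.50-fold (log2 fold change 3.09, SE 0.051, adjusted p = 7.41e-30), and the knockdown added a further 1.12-fold (log2 fold change 0.17, SE 0.037, adjusted p = 0.00109). At d5 it was at 26.1, 36.8 and 29.7 CPM, 29.2, 25.7 and 26.1 CPM and 56.2, 62.8 and 57.9 CPM in the same order. FGF2 no longer lifted it above vehicle, and the knockdown libraries stood above all others. FGF2 was not called at d5 (log2 fold change -0.19, SE 0.098, adjusted p = 0.120), though it was called as lower with no filter (-0.20), in 1 fit of all 18 libraries (-0.21) and without replicate 1 of Ctrl+vehicle (-0.29). The knockdown raised Dusp6 2.18-fold at d5 (log2 fold change 1.12, SE 0.089, adjusted p = 3.29e-08).

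Dusp7 (chr9:106368632-106375724, plus strand) was at 54.1, 56.8 and 55.2 CPM in Ctrl+vehicle at d2.5, 100.4, 92.1 and 98.4 CPM in Ctrl+FGF2 and 98.7, 83.9 and 89.8 CPM in Y/T dKD+FGF2. The groups with FGF2 overlapped each other and lay above vehicle. FGF2 raised it 1.74-fold (log2 fold change 0.80, SE 0.050, adjusted p = 6.29e-15), and the knockdown was not called (log2 fold change -0.11, SE 0.048, adjusted p = 0.109), though it was called without replicate 1 of Y/T dKD+FGF2 (-0.17). At d5 its 9 libraries lay between 51.4 and 59.3 CPM, and neither FGF2 (log2 fold change 0.074, SE 0.049, adjusted p = 0.232) nor the knockdown (log2 fold change 0.073, SE 0.048, adjusted p = 0.281) was called. Its mean at d5 was 52.1 ± 0.849 CPM in vehicle, 54.4 ± 0.268 with FGF2 and 57.4 ± 1.91 under the knockdown.

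The JNK- and p38-directed members did not move together at d2.5. At d5 Dusp8, Dusp10 and Dusp16 were called as lower with FGF2 and as higher with the knockdown, where the call of Dusp8 was fragile. Dusp10 (chr1:184013302-184075636, plus strand) was at 16.6, 21.04 and 17.2 CPM in Ctrl+vehicle at d2.5, 3.52, 5.82 and 5.55 CPM in Ctrl+FGF2 and 5.47, 4.74 and 6.79 CPM in Y/T dKD+FGF2. The vehicle libraries stood above all the others. FGF2 lowered Dusp10 to 26.9% of vehicle (log2 fold change -1.90, SE 0.14, adjusted p = 1.33e-13), the largest fall of a member in that comparison, and the knockdown was not called (log2 fold change 0.18, SE 0.18, adjusted p = 0.496). At d5 it was at 5.23, 6.33 and 7.45 CPM, 3.03, 3.75 and 4.22 CPM and 6.12, 6.81 and 6.52 CPM. Ctrl+FGF2 lay below the other groups, which overlapped. FGF2 lowered it to 58.3% of vehicle (log2 fold change -0.78, SE 0.17, adjusted p = 0.00100), and the knockdown raised it 1.76-fold (log2 fold change 0.81, SE 0.17, adjusted p = 0.00114), to a mean of 6.49 ± 0.345 CPM beside 6.34 ± 1.11 in vehicle.

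Dusp16 (chr6:134715468-134792625, minus strand), the member with the most annotated exon (7798 bases over all its transcripts), had the smallest span of group means among the members. At d2.5 it was at 19.2, 17.9 and 18.7 CPM in Ctrl+vehicle, 20.8, 22.7 and 24.2 CPM in Ctrl+FGF2 and 22.7, 19.3 and 18.7 CPM in Y/T dKD+FGF2. At d5 it was at 25.3, 27.00 and 27.4 CPM, 17.2, 22.5 and 20.8 CPM and 27.2, 30.3 and 28.8 CPM. FGF2 libraries lay just above vehicle at d2.5 and below it at d5, and the knockdown libraries lay above FGF2 at d5. FGF2 raised Dusp16 at d2.5 (log2 fold change 0.27, SE 0.080, adjusted p = 0.00360) and lowered it at d5 (log2 fold change -0.38, SE 0.088, adjusted p = 0.00167). The knockdown was not called at d2.5 (log2 fold change -0.17, SE 0.080, adjusted p = 0.123, called without replicate 1 of Y/T dKD+FGF2 at -0.26) and raised it at d5 (log2 fold change 0.50, SE 0.087, adjusted p = 2.27e-04).

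Dusp8 (chr7:142079490-142095843, minus strand) was the least abundant and least certain member. Its libraries held 52, 55 and 62 counts in Ctrl+vehicle at d2.5, 73, 50 and 53 counts in Ctrl+FGF2 and 22, 42 and 29 counts in Y/T dKD+FGF2, or 3.59, 3.55 and 4.79 CPM, 5.14, 3.64 and 3.54 CPM and 1.82, 3.27 and 2.29 CPM. Vehicle and FGF2 overlapped and the knockdown lay below both. FGF2 was not called (log2 fold change 0.046, SE 0.19, adjusted p = 0.837). The knockdown lowered Dusp8 to 59.98% of Ctrl+FGF2 (log2 fold change -0.74, SE 0.21, adjusted p = 0.0103), a call that was lost without replicate 1 of Ctrl+FGF2 (-0.54) and without replicate 1 (-0.57) or 3 (-0.69) of Y/T dKD+FGF2.

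At d5 Dusp8 held 32, 48 and 44 counts in Ctrl+vehicle, 4, 24 and 16 counts in Ctrl+FGF2 and 31, 30 and 28 counts in Y/T dKD+FGF2, for means of 3.72 ± 0.438, 1.25 ± 0.809 and 2.66 ± 0.181 CPM. The 3 groups did not overlap, with vehicle highest and FGF2 lowest. FGF2 lowered it to 34.7% of vehicle (log2 fold change -1.53, SE 0.30, adjusted p = 4.44e-04), and to a log2 fold change of -1.11 without replicate 1 of Ctrl+FGF2, the library with 4 counts. The knockdown raised it (log2 fold change 1.04, SE 0.32, adjusted p = 0.0205), but the call was lost without that library (0.62) and without replicate 1 (1.04) or 3 (0.99) of Y/T dKD+FGF2.

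Dusp14, the atypical member (chr11:84048041-84069261, minus strand), was lower with FGF2 on both days. At d2.5 it was at 18.3, 17.04 and 17.9 CPM in Ctrl+vehicle, 10.8, 12.1 and 12.4 CPM in Ctrl+FGF2 and 9.85, 11.9 and 11.6 CPM in Y/T dKD+FGF2. At d5 it was at 10.7, 6.92 and 9.43 CPM, 5.15, 3.91 and 4.76 CPM and 7.49, 7.48 and 6.01 CPM. Vehicle lay above FGF2 on both days, and the knockdown overlapped FGF2 at d2.5 and lay above it at d5. FGF2 lowered Dusp14 to 65.9% of vehicle at d2.5 (log2 fold change -0.60, SE 0.091, adjusted p = 8.49e-07) and to 51.9% at d5 (log2 fold change -0.95, SE 0.17, adjusted p = 2.15e-04). The knockdown was not called at d2.5 (log2 fold change -0.088, SE 0.10, adjusted p = 0.577) and raised it at d5 (log2 fold change 0.61, SE 0.18, adjusted p = 0.0146). The call at d5 was lost without replicate 2 of Ctrl+FGF2 (0.50) and without replicate 1 or 2 of Y/T dKD+FGF2 (0.56 each).

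Counted over the family, FGF2 at d2.5 changed 7 of the 9 members, 5 higher (Dusp4, Dusp5, Dusp6, Dusp7 and Dusp16) and 2 lower (Dusp10 and Dusp14). Over the 13677 genes tested at d2.5, 67.6% of all genes were called, 33.5% higher and 34.1% lower, so the number of members called was near what all genes gave. The median absolute log2 fold change was 0.80 over the members and 0.35 over all genes. The median with its sign was 0.27, beside 0.0022, and the range ran from -1.90 to 3.26. The knockdown at d2.5 changed 4 members, with Dusp6 higher and Dusp1, Dusp5 and Dusp8 lower, where 24.5% of all genes were called, 10.8% higher and 13.6% lower. None of these 4 changed by as much as 2-fold, and without replicate 3 of Y/T dKD+FGF2 only 2 members were called. Calls over all genes were also fewer in that fit, at 2239 of 13918 genes, against 3345 of 13677 with all libraries of the day. With all libraries the median of the members was -0.11, and 0.0013 over all genes. The libraries of the groups compared did not overlap for 7 members in the FGF2 comparison (70.5% of all genes) and for 4 in that of the knockdown (39.4%).

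At d5 FGF2 changed 5 of the 9 members, Dusp5 higher and Dusp8, Dusp10, Dusp16 and Dusp14 lower, where 13304 genes were tested at d5 and 47.2% of all genes were called, 23.5% higher and 23.7% lower. Dusp8, Dusp10 and Dusp16, grouped here as JNK- and p38-directed, were thus all lower with FGF2 at d5, as was Dusp14. Dusp1, also directed mainly at p38 and JNK, was not called (log2 fold change 0.13), and neither was Dusp6 or Dusp7. The median of the members was -0.26, beside 0.016 over all genes. The knockdown at d5 raised 7 of the 9 members, all but Dusp5 and Dusp7, and lowered none, where 31.7% of all genes were called, 15.6% higher and 16.1% lower. FGF2 and vehicle did not overlap for 6 members at d5 (54.5% of all genes). The libraries of the knockdown lay above those of Ctrl+FGF2 for all 9 members at d5, where 45.0% of all genes did not overlap in either direction. The median of the members was 0.61, beside 0.0034 over all genes. Without the fragile calls of Dusp8 and Dusp14, 5 members remained, Dusp1, Dusp4, Dusp6, Dusp10 and Dusp16, and each of these was called in all 9 fits that left out 1 library.

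Set against vehicle, the knockdown with FGF2 gave a different picture on each day. At d2.5 8 members differed and also did not overlap (69.8% of all genes called, 34.1% higher and 35.7% lower, no overlap for 71.1%), with Dusp4 (log2 fold change 3.20, SE 0.10, adjusted p = 1.37e-22), Dusp6 (log2 fold change 3.26, SE 0.051, adjusted p = 1.83e-30), Dusp5 (0.85) and Dusp7 (0.69) higher and Dusp10 (-1.71), Dusp1 (-0.93), Dusp14 (-0.69) and Dusp8 (-0.69) lower. The call of Dusp8 was lost without replicate 1 of Y/T dKD+FGF2 (-0.51). At d5 5 members were higher and none lower (41.8% of all genes called, 20.7% higher and 21.1% lower), and 6 did not overlap (51.9% of all genes). The higher members were Dusp4 (log2 fold change 1.63, SE 0.16, adjusted p = 1.92e-07), Dusp6 (0.93), Dusp5 (0.75), Dusp1 (0.73) and Dusp7 (0.15). These are the nuclear and the ERK-selective members. The call of Dusp7 was lost with DESeq2, with no filter, in 1 fit of all 18 libraries and without replicate 1 or 2 of Ctrl+vehicle or of Y/T dKD+FGF2 (0.12 to 0.14). Dusp8, Dusp10, Dusp16 and Dusp14, which FGF2 had lowered at d5, did not pass the test against vehicle (-0.49 for Dusp8, 0.034 for Dusp10, 0.12 for Dusp16 and -0.34 for Dusp14). Of these 4, Dusp8 was called as lower without replicate 1 of Ctrl+FGF2 (-0.49) and with only the 2 groups compared, and Dusp14 was called as lower without replicate 2 of Ctrl+vehicle (-0.51).

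**Figure D3:**
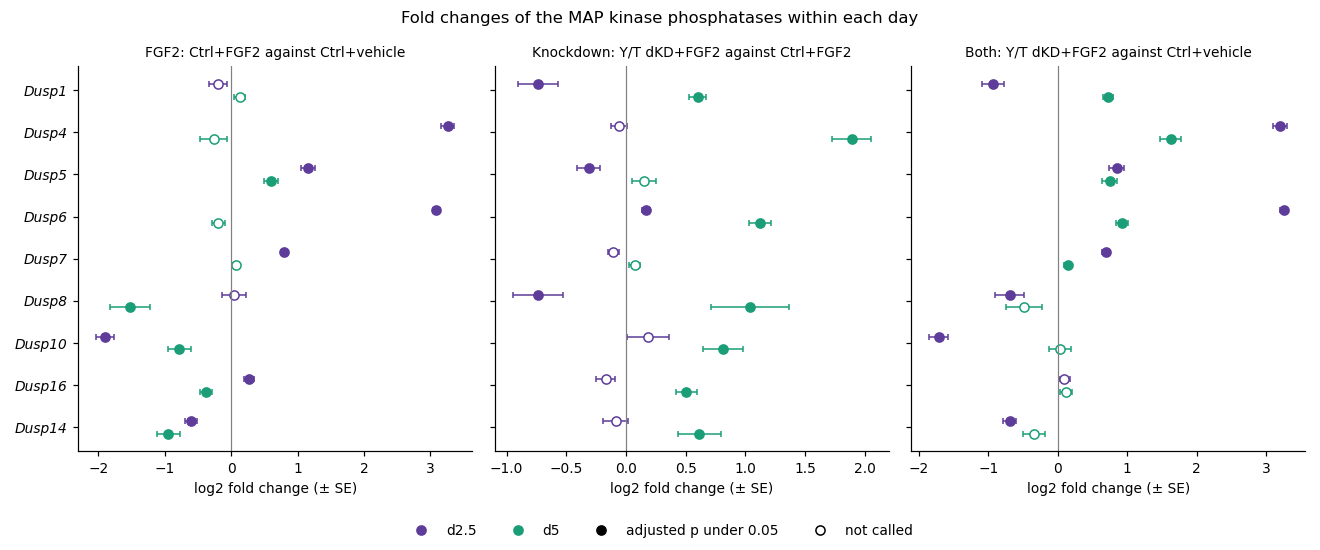
Log2 fold changes of the 9 members with their SE, for FGF2 against vehicle, knockdown against FGF2, and knockdown with FGF2 against vehicle, at d2.5 (purple) and d5 (green), where filled points are called at an adjusted p under 0.05. Each panel has its own horizontal scale. In the middle panel all 9 green points lie above 0 and 7 are filled, while the purple points of Dusp1, Dusp5 and Dusp8 lie below 0 and are filled.

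The same contrast was then compared between days in 1 fit of all 18 libraries. The FGF2 effect differed between d5 and d2.5 for 7 of 9 members (14198 genes tested, 60.9% of all genes called, 31.8% higher and 29.1% lower). It was smaller or turned downward at d5 for Dusp4 (difference of log2 fold changes -3.54, SE 0.23, adjusted p = 3.98e-14), Dusp6 (-3.30, SE 0.11, adjusted p = 2.78e-20), Dusp8 (-1.60, SE 0.37, adjusted p = 4.51e-04), Dusp7 (-0.75), Dusp16 (-0.68) and Dusp5 (-0.59). For Dusp10, which fell on both days, the effect was less negative at d5 (1.09, SE 0.25, adjusted p = 4.54e-04). Dusp1 (0.30) and Dusp14 (-0.37) did not pass this test. Dusp1 passed it with upper-quartile factors (0.39) and with unstranded counts (0.38), and Dusp14 without replicate 2 of d5 Ctrl+vehicle (-0.54).

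The knockdown effect differed between days for 7 of 9 members, and for all 7 it was more positive at d5, where 20.9% of all genes were called, 11.6% higher and 9.35% lower. The difference was 1.94, SE 0.16, adjusted p = 6.45e-10 for Dusp4, 1.77, SE 0.40, adjusted p = 0.00180 for Dusp8 and 1.33, SE 0.17, adjusted p = 1.57e-06 for Dusp1. It was 0.95 for Dusp6, 0.70 for Dusp14, 0.67 for Dusp16 and 0.46 for Dusp5. Dusp1 and Dusp8 were called as lower at d2.5 and as higher at d5, so the sign itself turned. For Dusp8 the call of each day held in only 6 of 9 fits that left out 1 library, against all 9 for Dusp1. The difference between days held in all 18 such fits for both. The calls of Dusp5 (without replicate 3 of d2.5 Y/T dKD+FGF2, 0.38, or with DESeq2) and of Dusp14 (without replicate 2 of d5 Ctrl+FGF2, 0.59) rested on 1 library or on the tool. Dusp10 (0.63) and Dusp7 (0.18) did not pass, though each was called without 1 library, Dusp10 without replicate 1 of d2.5 Ctrl+FGF2 (0.81) and Dusp7 without replicate 1 of d2.5 Y/T dKD+FGF2 (0.24). The FGF2 and knockdown contrasts share the Ctrl+FGF2 libraries, so a low or high value there moves both in opposite directions.

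Between the days themselves, which are also the labelled batches, Dusp1 rose in all 3 treatments, by 1.92 with vehicle, 2.22 with FGF2 and 3.56 with FGF2 and the knockdown on the log2 scale. Without FGF2, 5 of 9 members differed (66.4% of all genes called, 33.1% higher and 33.2% lower) and 6 did not overlap (68.4%), with Dusp1, Dusp6 (1.07) and Dusp16 (0.52) higher at d5 and Dusp10 (-1.52) and Dusp14 (-0.99) lower. Dusp7 (-0.086) was called only with upper-quartile factors (-0.18). With FGF2, 8 differed (80.0% of all genes called, 41.2% higher and 38.8% lower), 7 did not overlap (81.1%) and 7 of the 8 were lower at d5, led by Dusp4 (-3.74) and Dusp6 (-2.23). Dusp10 (-0.43) overlapped between the days and lost its call with DESeq2, with unstranded counts and in 9 of 18 fits that left out 1 library. Its values there were -0.32 and -0.35 without replicate 2 or 3 of d2.5 Ctrl+FGF2, -0.32 and -0.45 without replicate 1 or 2 of d5 Ctrl+FGF2, and -0.43 to -0.44 without any 1 of the d5 knockdown libraries, replicate 1 of the knockdown at d2.5 or replicate 3 of d2.5 Ctrl+vehicle. Dusp16 (-0.16) gained a call without replicate 1 of d2.5 (-0.22) or 2 of d5 (-0.25) Ctrl+FGF2. Dusp6 thus differed between the days in opposite directions, higher at d5 without FGF2 and lower with it. Under the knockdown 7 differed (78.4% of all genes called, 40.3% higher and 38.1% lower) and 7 did not overlap (79.8%), with Dusp1 and Dusp16 (0.51) higher and Dusp4 (-1.79), Dusp6 (-1.28), Dusp7 (-0.66), Dusp14 (-0.66) and Dusp5 (-0.24) lower. The call of Dusp5 was lost with DESeq2, without replicate 1 of d2.5 Y/T dKD+FGF2 (-0.15) and without any 1 replicate of the same group at d5 (-0.22 to -0.25).

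To see which genes behaved most like each member, the root mean square (RMS) difference of log2 CPM over the 18 libraries was computed after centring each gene on its own mean. For the 7 members whose group means spanned at least 1 on the log2 scale, the closest genes among those tested were Podnl1 (RMS 0.246) and Gas1 (0.318) for Dusp1, Hmga2 (0.322) and Eml5 (0.405) for Dusp4, Slc2a1 (0.164) and Map3k14 (0.175) for Dusp5, and Slc22a23 (0.336) and Spry4 (0.336) for Dusp6. Spry4 encodes a feedback inhibitor of receptor tyrosine kinase signaling, and Slc2a1 a glucose transporter. They were Arap2 (0.478) and Scd3 (0.483) for Dusp8, Bambi (0.319) and Gcnt2 (0.324) for Dusp10, and Klf10 (0.214) and Unc5b (0.221) for Dusp14. Among the members themselves, the closest pair was Dusp5 and Dusp7 (0.253) and the FGF2-induced pair Dusp4 and Dusp6 was at 0.588. By this measure genes that change little lie close to each other. On the log2 scale, group means spanned 1.27 for Dusp5 and 0.893 for Dusp7, and 3.66 for Dusp4 and 3.26 for Dusp6. Dusp1 and Dusp4, both nuclear, were the least alike (2.57).

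The phosphatases were then set beside related genes of the pathway, from lists written by hand. Of 15 ERK feedback and early genes tested, FGF2 at d2.5 raised 13 and lowered 2, where 33.5% and 34.1% of all genes were called as higher and lower (shares in the same order stand beside each count below), and the median of their log2 fold changes was 1.65. The largest rise was Etv4, an ETS factor induced by FGF (3.90, SE 0.057, adjusted p = 2.59e-31), and Fos, an AP-1 subunit, fell most (-1.28, SE 0.22, adjusted p = 6.59e-06). The knockdown at d2.5 raised 2 and lowered 5 (10.8% and 13.6% of all genes), with Spred1, an inhibitor of Ras activation, highest (0.46, SE 0.037, adjusted p = 9.36e-11) and Ier3, an early response gene, lowest (-0.77, SE 0.088, adjusted p = 1.61e-07). At d5 FGF2 raised 10 and lowered 1 (23.5% and 23.7% of all genes), with a median of 0.33, where Etv4 rose most (1.23, SE 0.20, adjusted p = 5.91e-05) and Rasa1, a Ras GTPase-activating protein, fell (-0.30, SE 0.046, adjusted p = 2.80e-05). The knockdown at d5 also raised 10 and lowered 1, against 15.6% and 16.1% of all genes (median 0.42), Etv4 again most (1.52, SE 0.14, adjusted p = 2.31e-07), and Il17rd, an inhibitor of FGF signaling, fell (-0.32, SE 0.11, adjusted p = 0.0250). FGF2 raised neither Dusp4 nor Dusp6 at d5 (values above).

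The kinases that the phosphatases act on, and those upstream, formed the next list. Of its 30 genes of the MAP kinase modules tested, FGF2 raised 10 and lowered 10 at d2.5 (33.5% and 34.1% of all genes) and raised 8 and lowered 9 at d5 (23.5% and 23.7% of all genes), shares close to those of all genes, with medians of 0.053 and -0.057. The Raf scaffold Ksr1 fell most at d2.5 (-0.83, SE 0.092, adjusted p = 2.13e-09). At d5 the ERK-activated kinase Rps6ka1 rose most (0.73, SE 0.12, adjusted p = 1.06e-04) and Map2k1, which encodes the ERK kinase MEK, fell most (-0.64, SE 0.066, adjusted p = 4.80e-07). The knockdown raised 3 and lowered 7 at d2.5 (10.8% and 13.6% of all genes), with Mapk8, which encodes a JNK, at the top (0.22, SE 0.067, adjusted p = 0.0134) and Mapk7, which encodes a larger ERK, at the bottom (-0.40, SE 0.087, adjusted p = 0.00104). At d5 it raised 7 and lowered 2 (15.6% and 16.1% of all genes), with the p38 gene Mapk12 highest (0.52, SE 0.19, adjusted p = 0.0414) and Rps6ka1 lowest (-0.51, SE 0.12, adjusted p = 0.00325). The medians for the knockdown were -0.026 and 0.026.

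Among 18 other phosphatases of MAP kinases and of dual specificity, 14 were tested at d2.5 and 15 at d5. FGF2 raised 7 and lowered 3 at d2.5 (33.5% and 34.1% of all genes), and raised 0 and lowered 8 at d5 (23.5% and 23.7% of all genes). The knockdown raised 1 and lowered 1 at d2.5 (10.8% and 13.6% of all genes), and raised 5 and lowered 1 at d5 (15.6% and 16.1% of all genes). The total called was near the background of 67.6% and 47.2% for FGF2. Their medians were 0.052 and -0.13 for FGF2 and 0.025 and 0.14 for the knockdown, at d2.5 and d5. Dusp2, a nuclear, inducible phosphatase like Dusp4, was at 0.416 ± 0.0893 CPM without FGF2, 5.76 ± 0.812 with it and 7.40 ± 0.841 under the knockdown at d2.5, and at 1.13 ± 0.198, 0.473 ± 0.160 and 3.24 ± 0.0831 at d5. It led the rise with FGF2 at d2.5 (3.74, SE 0.25, adjusted p = 2.09e-14), the fall with FGF2 at d5 (-1.23, SE 0.36, adjusted p = 0.00872) and the rise with the knockdown at d5 (2.76, SE 0.28, adjusted p = 6.37e-07). In Ctrl+vehicle at d2.5 and Ctrl+FGF2 at d5 it held only 18 and 16 counts over the 3 libraries. Dusp22, an atypical phosphatase, fell most with FGF2 at d2.5 (-1.03, SE 0.13, adjusted p = 2.55e-08), and Dusp19 fell most with the knockdown at d5 (-0.56, SE 0.13, adjusted p = 0.00313). At d2.5 the knockdown raised Ptprr, a tyrosine phosphatase of ERK (1.27, SE 0.31, adjusted p = 0.00339), from 0.678 ± 0.0671 to 1.65 ± 0.354 CPM, and lowered Dusp3 (-0.24, SE 0.073, adjusted p = 0.0153).

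**Figure D4:**
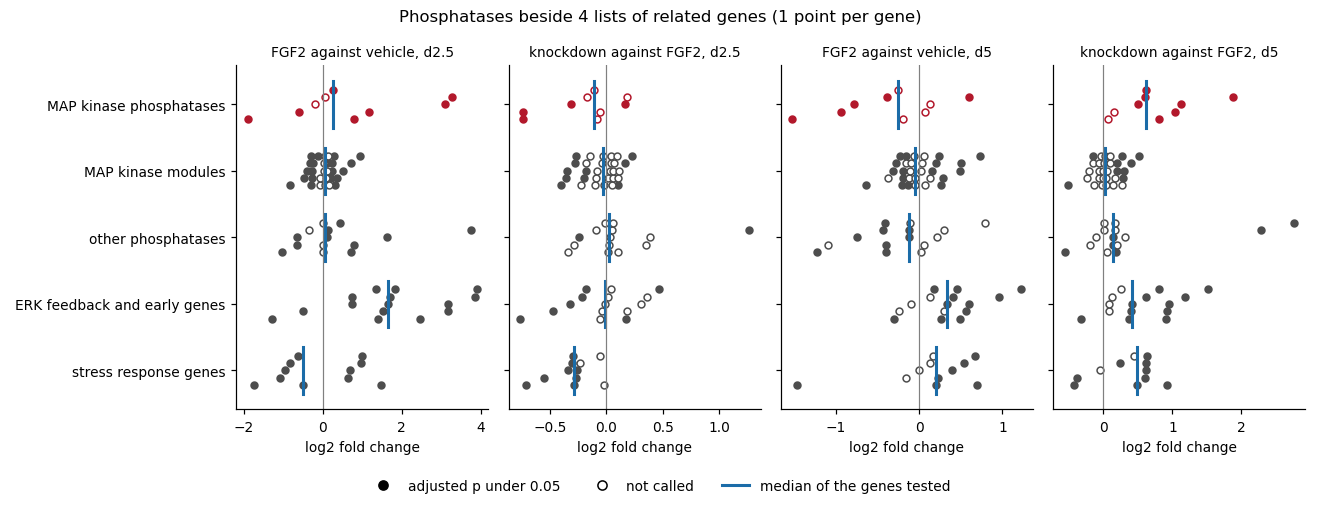
Log2 fold changes of the 9 members (red) and of the genes of 4 related lists (grey) for FGF2 against vehicle and knockdown against FGF2 at each day, 1 point per gene, filled where called, with a blue bar at the median of each list; each panel has its own horizontal scale and the vertical place within a row carries no value. The bar of the ERK feedback and early genes stands at 1.65 for FGF2 at d2.5, and that of the phosphatases at 0.61 for the knockdown at d5, while the bars of the MAP kinase modules stay near 0.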

How the data were processed

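RNA was poly(A)-selected and sequenced in bulk from 18 libraries of O9-1 cells, 3 per group. The deposited values are counts of reads on each gene, which the authors did not normalize. The submitters' processing notes name FastQC, STAR, Picard, featureCounts and the mm10 build, and the layout is that of STAR. The annotation release is not given in the sources used here. The reverse-strand column, with 96.0% to 96.6% of the stranded counts, was used. Reads not assigned to a gene (27.0% to 34.4% of a library) were left out. Names and coordinates came from GENCODE M21 on GRCm38, which held 55154 of the 55335 identifiers.

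Counts were filtered (filterByExpr), scaled by TMM and tested with edgeR 4.0.16 (quasi-likelihood test, R 4.3.3), the 9 libraries of a day in 1 fit (13677 genes at d2.5, 13304 at d5) and all 18 in another (14198 genes) for differences between days. A gene was called at a Benjamini-Hochberg adjusted p under 0.05 over all genes tested. Levels of both days share the scale of the fit of all 18 libraries. The members and the gene lists were chosen with earlier results of these data known. From each list, the called genes with the largest rise and fall in each comparison were named. A gene that this rule would name is not reported here. For each member whose group means spanned at least 1 on the log2 scale, the 2 genes most like it were named (log2 CPM with a prior count of 2). The alternatives were DESeq2 1.42.0, RLE and upper-quartile factors, no filter, at least 10 counts in every library, unstranded counts, a change of at least 2-fold, a replicate block, other sets of libraries in the fit, and leaving out each library. Counts limit the precision for Dusp8, which had 4 to 73 counts per library.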

Additional observations from a re-analysis of the deposited data

Results flagged for a closer look

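The FGF2 effect differed between the days, in a test of the difference itself (edgeR, all 18 libraries), for 7 members, where 60.9% of 14198 genes did. The difference of log2 fold changes, d5 minus d2.5, was -3.54 for Dusp4, -3.30 for Dusp6, -1.60 for Dusp8, -0.75 for Dusp7, -0.68 for Dusp16, -0.59 for Dusp5 and 1.09 for Dusp10. The knockdown effect differed likewise for 7 members, where 20.9% of all genes did, by 1.94 for Dusp4, 1.77 for Dusp8, 1.33 for Dusp1, 0.95 for Dusp6, 0.70 for Dusp14, 0.67 for Dusp16 and 0.46 for Dusp5. Day and labelled batch cannot be told apart. Each effect was taken within a day, and whether another batch would give the same difference was not tested.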

How the results depend on the processing

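Under the alternatives, 232 counts of called members stayed within 1.5 times the reported count and 12 did not. Of the values of single members, 2025 kept their direction and their side of the threshold, 39 lost a call, 16 gained one and 9 changed sign, all of them for effects that were not called. Asking for a change of at least 2-fold left 4 members for FGF2, 0 for the knockdown and 3 for the knockdown with FGF2 against vehicle at d2.5, and 1, 3 and 1 at d5. It left 4 and 3 for the differences of the FGF2 and knockdown effects between days, and 3, 5 and 3 for d5 against d2.5 in vehicle, FGF2 and knockdown cells. Over all genes in the same order, the calls went from 9243 to 1906, 3345 to 81, 9551 to 2080.0, 6278 to 771, 4220.0 to 424, 5564 to 642, 8643 to 2747, 2973 to 330.0, 9421 to 2325, 11358 to 4550.0 and 11136 to 4247. Leaving out 1 library gave 2 to 5 members called for the knockdown at d2.5. The lowest count was without replicate 3 of Y/T dKD+FGF2, where Dusp5 and Dusp8 dropped out and 2239 of 13918 genes were called. Over the 10 other comparisons leaving out 1 library gave 7 to 7, 7 to 8, 5 to 6, 5 to 7 and 4 to 6 within the days, 7 to 8 and 6 to 8 for the differences between days, and 5 to 5, 7 to 9 and 6 to 7 between the days. The signs that changed were those of Dusp8 for FGF2 at d2.5 (-0.020, -0.029 and -0.15 without replicate 1 or 2 of Ctrl+vehicle or replicate 1 of Ctrl+FGF2, and up to 0.19), Dusp10 for the knockdown at d2.5 (-0.012 without replicate 1 of Ctrl+FGF2, and up to 0.30), Dusp10 for Y/T dKD+FGF2 against vehicle at d5 (-0.076 and -0.0097 without replicate 1 of Ctrl+vehicle or 2 of Y/T dKD+FGF2, and up to 0.16), and Dusp8 between the days in Ctrl+vehicle (0.068 and 0.012 without replicate 3 of d2.5 or 1 of d5) and in Y/T dKD+FGF2 (-0.072 without replicate 1 of d2.5, and up to 0.34). The cause was not tested. At least 10 counts in every library removed Dusp8 at d5. With DESeq2 3 members were called for the knockdown at d2.5.

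Libraries with the same replicate number showed no strong shared deviation, which does not exclude that the numbers pair the samples. Deviations of same-numbered libraries correlated at -0.072 to 0.11 within a day (18 pairs, 1 of them over 0.1). With a replicate block, 7, 4 and 8 members were called at d2.5 and 5, 7 and 5 at d5, as without it, 7 and 7 for the differences between days, and 5, 8 and 7 between the days. Low counts limit Dusp8, whose calls for the knockdown within each day were lost in some of the fits that left out 1 library. Levels of mRNA say nothing of the amount or activity of the phosphatases.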

Other observations

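Stress response genes, several of which respond to JNK and p38, were also followed (11 genes, all tested on both days). The knockdown lowered 8 and raised 0 of them at d2.5 (13.6% of all genes were called as lower), led by Atf3, a transcription factor of the stress response (-0.71, SE 0.11, adjusted p = 1.32e-05), and raised 7 and lowered 2 at d5 (15.6% called as higher), where Atf3 rose most (0.92, SE 0.13, adjusted p = 3.25e-05) and the heat shock gene Hspa1b fell most (-0.43, SE 0.070, adjusted p = 1.30e-04). Dusp1 moved the same way on each day. In the test of the difference between days, 7 of the 11 had a more positive knockdown effect at d5 and 1 a more negative one, with a median difference of 0.79, where 11.6% of all genes tested were more positive.

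At d2.5 FGF2 raised 5 and lowered 6 of these genes, where 33.5% and 34.1% of all genes were called as higher and lower, with Jun, an AP-1 subunit and JNK substrate, highest (1.46, SE 0.045, adjusted p = 6.13e-23) and Gadd45b, a growth arrest and DNA damage gene, lowest (-1.73, SE 0.079, adjusted p = 1.61e-18). At d5 it raised 6 and lowered 1 (23.5% and 23.7% of all genes), with Gadd45b now highest (0.69, SE 0.056, adjusted p = 2.53e-08) and Ddit3, a gene of the unfolded protein response, lowest (-1.47, SE 0.16, adjusted p = 5.31e-07). Gadd45b thus fell with FGF2 at d2.5 and rose with it at d5. Ddit3 has more than 1 identifier in the annotation, and only the first was used.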
